A study of Mus musculus with 34 samples.

Results

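CTCF was profiled by multi-target chromatin integration labelling (mtChIL-seq) in 10000 and in 1000 cells of C2C12, an established line of mouse muscle precursor cells. The 6 CTCF libraries described here (3 per cell number) were picked by their labels from 28 libraries that matched a column of the deposited count table. All 6 came from dual stainings in which the same cells carried a rabbit monoclonal antibody to CTCF and a mouse monoclonal antibody to H3K4me3, the histone mark of active gene starts, so the groups share the cell line and both antibodies and differ by the labelled number of cells. In this method an antibody on fixed cells guides a DNA probe that a transposase inserts nearby, and transcription from that probe amplifies the neighbouring DNA before sequencing. The series also holds CTCF stained alone in 10000 cells (2 libraries), the 6 H3K4me3 libraries of the same stainings, and libraries of H3K27ac and elongating RNA polymerase II from 100 or 1000 cells. Separate cultures are not named for the replicates, and a p-value here therefore reflects the spread among these libraries, which may be technical.

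CTCF is a zinc-finger protein that binds a long, well-conserved DNA motif. With the ring-shaped cohesin complex it anchors chromatin loops and marks the borders of topological domains, and at imprinted loci it acts as an insulator. Many of its sites are shared between cell types and lie far from genes, while others lie at active gene starts.

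The counts on the autosomes and X were 2074331, 3262830 and 3053854 in the 3 libraries of 1000 cells and 4949307, 5241420 and 4066700 in those of 10000 cells. The ranges did not overlap, so the total of counts and cell number cannot be told apart. Thinning to the lowest total, used where stated, makes the totals equal. Since the handling of duplicates is not stated, it does not separate sequencing depth from the number of distinct reads in a library. H3K4me3 at 8 myoblast markers averaged 11 times the genome mean in 10000 cells and 8.79 times in 1000. None of the 8 was at 0, but only 4 held 20 or more H3K4me3 counts, and Myod1, read at a gene end rather than a known start, was low at 2 and 0.57 CPM (counts-per-million, relative to the total on the autosomes and X). It stood at 2.3 and 1.63 times for 9 fibroblast and adipocyte markers, at 2 and 1.59 for 7 of 8 blood markers, at 0.796 and 1.4 for 4 liver markers (1 of them at 0 in 10000 cells) and at 0.629 and 0.422 for 6 neuronal and glial markers (1 at 0). Mitochondrial counts, which were left out of the totals, stood at CPM values of 898, 691 and 617 in the CTCF libraries of 1000 cells and at 399, 382 and 470 in those of 10000, with no overlap. The H3K4me3 libraries also differed without overlap, at 1247 to 1571 against 618 to 698 CPM.

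CTCF counts were read first at gene starts whose promoter holds the protein's core motif. RefSeq sequences from 250 bases before to 50 bases after the start (GRCm38.p6) matched 17274 genes, and 95 of these promoters (0.55%) held the 12-letter CTCF core consensus on either strand. Shown here are the 6 motif promoters whose starts had the highest CTCF counts in the single staining, and Samd9l, the 1 motif gene whose start passed the test between cell numbers and which was added for that reason. Capitals mark the 12-letter match, and each run is written 5′ to 3′ on the strand of the gene. The motif's first base lies 56 (Ndufaf4), 169 (Nectin2), 92 (Rsad1), 180 (Dennd6b), 103 (Lsm11), 70 (Slc35e4) and 50 (Samd9l) bases before the start, and in Dennd6b and Lsm11 the match is on the opposite strand.
Ndufaf4 (chr4:24897973-24898082, plus strand): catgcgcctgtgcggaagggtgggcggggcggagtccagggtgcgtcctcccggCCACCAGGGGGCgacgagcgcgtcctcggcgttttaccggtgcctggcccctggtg
Nectin2 (chr7:19749677-19749796, minus strand): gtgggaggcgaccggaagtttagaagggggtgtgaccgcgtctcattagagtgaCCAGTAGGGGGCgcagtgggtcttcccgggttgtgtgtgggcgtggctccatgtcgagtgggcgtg
Rsad1 (chr11:94549234-94549353, minus strand): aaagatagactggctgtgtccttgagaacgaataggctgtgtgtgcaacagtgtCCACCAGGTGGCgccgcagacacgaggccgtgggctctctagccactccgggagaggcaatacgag
Dennd6b (chr15:89196589-89196708, minus strand): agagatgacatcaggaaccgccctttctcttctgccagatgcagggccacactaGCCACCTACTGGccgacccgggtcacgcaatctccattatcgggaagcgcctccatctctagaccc
Lsm11 (chr11:45944973-45945092, minus strand): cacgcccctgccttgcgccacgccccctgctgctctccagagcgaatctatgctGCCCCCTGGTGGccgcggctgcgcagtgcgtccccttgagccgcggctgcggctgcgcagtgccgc
Slc35e4 (chr11:3914669-3914788, minus strand): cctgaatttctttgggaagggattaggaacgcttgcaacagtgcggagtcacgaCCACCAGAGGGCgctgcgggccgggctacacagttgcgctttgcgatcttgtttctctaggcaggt
Samd9l (chr6:3399572-3399675, minus strand): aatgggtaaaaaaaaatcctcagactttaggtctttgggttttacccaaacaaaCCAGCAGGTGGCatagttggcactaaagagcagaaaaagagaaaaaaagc

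At the start of Ndufaf4, an assembly factor of respiratory complex I, CTCF stood at 22.7, 21.1 and 13.8 CPM (here counts within 1 kb of the start) in 1000 cells and at 28.5, 22.9 and 26.3 in 10000. The groups did not overlap, and the difference did not pass the test across all gene starts (log2 fold change 0.45, SE 0.15, edgeR quasi-likelihood test, adjusted p = 0.136). At Nectin2, which encodes a cell adhesion protein, the values were 12.5, 20.8 and 19.6 CPM against 25.5, 24.8 and 20.7 (log2 fold change 0.38, edgeR adjusted p = 0.224), where the highest library of 1000 cells was level with the lowest of 10000. The same test gave -0.15 at Slc35e4 (18.3, 18.7 and 11.5 against 13.3, 16.6 and 13 CPM) and 0.03 at Dennd6b (20.2, 12 and 20.3 against 17.6, 17 and 17.7), with overlapping groups at both. At Samd9l, an interferon-inducible gene, CTCF rose from 11.1, 9.19 and 6.55 to 15.6, 13.7 and 17.7 CPM (log2 fold change 0.83, SE 0.20, edgeR adjusted p = 0.0371). It kept its direction but did not pass with TMM scaling (log2 fold change 0.60, edgeR adjusted p = 0.363), with DESeq2, at equal depth (edgeR adjusted p = 0.102), without replicate 3 of 1000 cells (0.265, edgeR adjusted p), without its replicate 2 (0.0757) or without replicate 1 or 3 of 10000 cells (0.0797 and 0.124).

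Motif starts stood above other starts at both cell numbers. The ratio of mean CPM at motif starts to that at the other starts was 2.39, 2.31 and 2.25 in the libraries of 1000 cells and 2.26, 2.15 and 2.22 in those of 10000. The group means were 2.32 ± 0.0689 (SD, n = 3) and 2.21 ± 0.0565 (SD, n = 3), a difference that an exact two-sided permutation test did not separate (p = 0.2), and the single staining gave 2.23. With 3 libraries against 3 that test cannot go below 0.1, here and below. In the H3K4me3 libraries of the same stainings the ratio was only 1.1 to 1.19, and CTCF exceeded it in 6 of 6 stainings (exact two-sided sign-flip test, p = 0.0312, the smallest it can give). Allowing 1 mismatch brought in 808 promoters (4.68%) and gave ratios of 1.64 in 10000 and 1.71 in 1000 cells, with no overlap of the groups (exact p = 0.1). The filter on low counts left 83 motif starts, and 52 of them had a higher fitted level in 10000 cells. Over all 10429 starts tested the number was 7795. The median log2 fold change was 0.18 at the motif starts, beside 0.22 over all starts tested.

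Strong CTCF sites known from the single staining held a larger share of the counts at 10000 than at 1000 cells. These reference sites are the 26316 bins of 1 kb (1% of the genome bins) with the highest summed CPM of the 2 single-stained libraries, which were made from 10000 cells and so match 1 of the groups in cell number. They held 14.7%, 14.7% and 15% of the counts in 10000 cells and 13.9%, 13.4% and 13.3% in 1000 cells. The means were 14.8% ± 0.177 and 13.5% ± 0.317 (SD, n = 3 each), a difference of 1.28 percentage points with no overlap between the groups (exact permutation test, p = 0.1, the smallest possible). Beside them the single-stained libraries held 15.6% and 14.8%. The strongest 0.1% of bins stood at 28.3 to 29.3 times the genome mean per library in 10000 cells and at 25.7 to 27 times in 1000. The weaker reference sites stood at 13.2 to 13.4 against 11.9 to 12.4 times, and the lowest 75% of bins at 0.494 to 0.498 against 0.526 to 0.534 times.

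The ratio between cell numbers was 1.08 to 1.18 across classes of sites split by H3K4me3. Reference sites outside the H3K4me3 bins (the 1% of bins highest in the 6 H3K4me3 libraries of the same stainings) held 10.3% ± 0.124 of the counts in 10000 cells and 9.58% ± 0.135 in 1000 (SD, n = 3 each, a ratio of 1.08). Those that are also H3K4me3 bins held 4.5% ± 0.0671 and 3.94% ± 0.189 (a ratio of 1.14). H3K4me3 bins that are not reference sites held 3.99% ± 0.151 against 3.38% ± 0.146 (a ratio of 1.18). In each of these classes every library of 10000 cells lay above every library of 1000 cells (exact permutation test, p = 0.1). All H3K4me3 bins together held 8.49% ± 0.186 against 7.32% ± 0.329 of the CTCF counts, beside 8.07% in the single staining. The difference between the ratios was not tested.

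**Figure D1:**
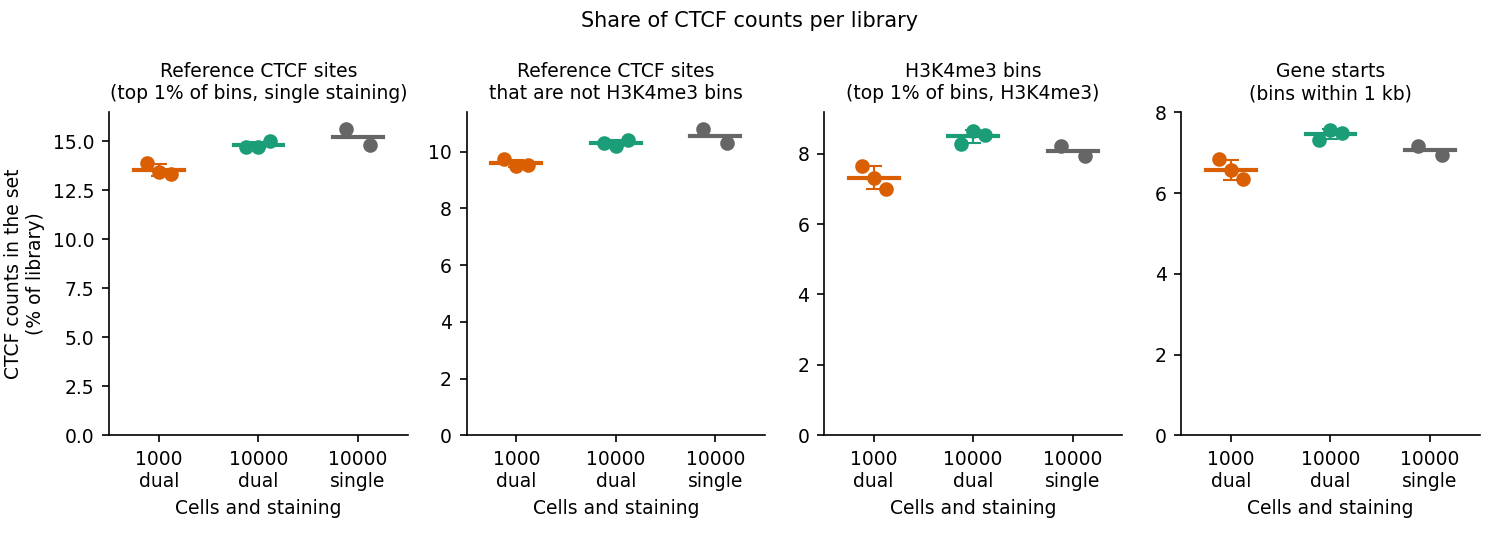
Share of CTCF counts (%, axis from 0) in 4 sets of bins for each library of 1000 and 10000 cells in dual staining and of 10000 cells in single staining; points are libraries, bars are means and error bars the SD of 3 libraries. In each set the 3 libraries of 10000 cells lie above the 3 of 1000 cells, by 1.28 percentage points on average at the reference sites and by 0.87 at gene starts.

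Gene starts as a class gained CTCF counts. Bins within 1 kb of a start (2.29% of all bins) held 7.32%, 7.56% and 7.49% of the counts in 10000 cells and 6.84%, 6.57% and 6.34% in 1000 cells, without overlap (means 7.46% ± 0.128 and 6.59% ± 0.25, SD, n = 3 each, exact permutation test, p = 0.1). Bins over 2 kb from every gene end held 85.3% ± 0.128 and 86.3% ± 0.296 (SD, n = 3 each). H3K4me3 itself was shared out in the same direction, with 24.6% of its counts at gene starts in 10000 and 21.7% in 1000 cells.

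Across the 10429 gene starts tested, 43 passed the threshold (edgeR, adjusted p under 0.05) with more CTCF in 10000 cells, which is 0.412%, and 0 (0%) passed with less. At an unadjusted p under 0.05 there were 1542. With the replicate number as a term in the model, 0 starts passed. The median log2 fold change of all tested starts was 0.22. Scaling by TMM, which centres the bulk of starts, or by DESeq2's size factors moved that median down by 0.23 to -0.01, and then no start passed by either tool (866 and 393 at an unadjusted p under 0.05). No start passed without replicate 3 of 1000 cells either, 15 passed without replicate 1 of 1000 cells, 3 without replicate 1 of 10000 cells, 11 without its replicate 2 and 11 without its replicate 3, so the values of single genes, Samd9l included, describe these libraries at a scaling by total counts.

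The largest differences were at low-count starts of genes with varied roles. Il3ra encodes a chain of the interleukin-3 receptor (chr14:14344946-14347945). It stood at 0.964, 1.84 and 1.64 CPM in 1000 cells and at 4.85, 5.53 and 5.66 in 10000 (log2 fold change 1.76, SE 0.40, edgeR adjusted p = 0.0277). Psmd2, a subunit of the proteasome's regulatory particle (chr16:20649921-20652920), stood at 1.93, 2.15 and 2.95 against 5.46, 8.97 and 6.89 CPM (1.57, SE 0.34, edgeR adjusted p = 0.0247). Rtraf, an RNA-binding protein of the tRNA ligase complex (chr14:19821921-19824920), stood at 1.93, 2.15 and 1.31 against 5.66, 4.77 and 6.89 CPM (1.65, SE 0.38, edgeR adjusted p = 0.0317). In each of these genes the groups did not overlap, which the rule for named starts requires.

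Fam168b (log2 fold change 1.71, edgeR adjusted p = 0.0247) and Nkrf, a repressor of NF-kappa-B target genes (1.54, edgeR adjusted p = 0.041), complete the 5 largest. Fam168b was placed by the end of the gene with more H3K27ac, since no promoter entry matched it, as were 10 of the 43 starts. Among strong starts, Nxn, which encodes the redox protein nucleoredoxin (chr11:76397691-76400690), held 25.1, 18.7 and 23.2 CPM in 1000 cells and 32.1, 30.3 and 37.6 in 10000 (0.59, SE 0.14, edgeR adjusted p = 0.0329). The log2 fold changes of the 43 starts ran from 0.59 to 1.76 with a median of 0.97, and 7 share bins with another gene. All 43 had groups that did not overlap, but the test that selected them used the same libraries. The share without overlap among all tested starts is not given here, so this adds no support. Mean H3K4me3 was also higher in 10000 cells at 42 of the 43, beside 74.1% of all tested starts.

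Among starts with fewer counts in 10000 cells, none passed, and the 5 with the smallest unadjusted p were Secisbp2l, Egr2, Cma1, E2f5 and Denr. Egr2, an immediate early transcription factor, stood at 13.5, 9.5 and 10.8 CPM in 1000 cells and 5.66, 8.01 and 5.9 in 10000, with no overlap (log2 fold change -0.74, SE 0.23, edgeR adjusted p = 0.106). Denr, a factor in translation reinitiation, stood at 13, 10.7 and 13.8 against 7.48, 7.25 and 9.34 CPM (-0.64, edgeR adjusted p = 0.117). The 100 kb window over Denr was among those that passed as lower in 10000 cells.

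Of the 10 strongest gene starts of the single staining, 9 did not pass the test. Has2, a hyaluronan synthase (chr15, placed by its H3K27ac-marked end), held 31.8, 27.3 and 27.8 CPM in 1000 and 36, 35.5 and 33.7 in 10000 cells, without overlap (log2 fold change 0.29, SE 0.12, edgeR adjusted p = 0.244). Eef2kmt, a methyltransferase of elongation factor 2, held 29.4, 29.1 and 26.2 against 28.7, 27.3 and 30.7 CPM (0.03, SE 0.13). Hoxc10 held 29.9, 30.3 and 25.5 against 29.7, 33 and 33.9 CPM (0.17, SE 0.13), and Abcb8, a mitochondrial transporter, 25.6, 26.4 and 23.6 against 21.4, 24.6 and 21.6 (-0.15, SE 0.14). The groups overlapped at the latter 3 starts, and the fitted values of the 10 ran from -0.15 to 0.59.

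**Figure D2:**
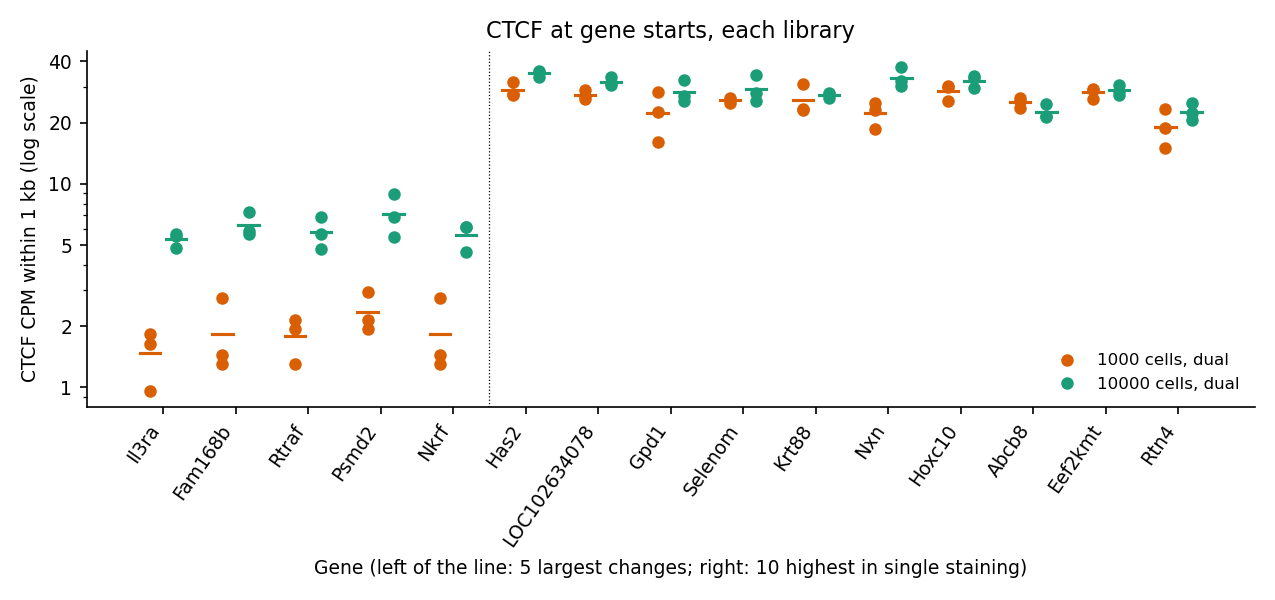
CTCF CPM within 1 kb (log scale) at 15 gene starts, with each of the 3 libraries of 1000 and of 10000 cells as a point and the group mean as a bar; the 5 genes left of the line had the largest changes among called starts and the 10 on the right the highest CTCF in the single staining. The 5 on the left lie at 0.964 to 2.95 CPM in 1000 and 4.65 to 8.97 in 10000 cells, while most of the 10 on the right overlap.

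The median difference in CTCF was larger at starts with more H3K4me3. With the tested starts ranked by H3K4me3 counts in 10000 cells and cut into 4 groups of nearly equal size, the median log2 fold change of CTCF was 0.11, 0.19, 0.25 and 0.31 from the lowest group to the highest, and 2, 5, 9 and 27 starts passed. Ranked by H3K4me3 in 1000 cells the medians were 0.12, 0.20, 0.24 and 0.29. Ranked by H3K27ac, measured in other stainings, they were 0.18, 0.21, 0.24 and 0.24, and ranked by single-stained CTCF 0.20, 0.23, 0.24 and 0.20. With TMM scaling the groups by H3K4me3 in 10000 cells kept their order at -0.12, -0.04, 0.02 and 0.08. The H3K4me3 and CTCF libraries of a staining share their cells, and starts with more counts are called more readily, so the numbers of calls per group cannot be read as a difference between them.

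In the gene lists 2 members passed the test, Bcl6 and E2f1, beside 0.412% of all tested starts, a share at which a list of this size holds few or no calls. CTCF and cohesin machinery genes (Ctcf, Rad21, Smc3, Stag1, Stag2, the loader Nipbl and others) had 13 of 15 members tested, 0 called in either direction, and a median log2 fold change of 0.28. Stag2, a cohesin subunit, had the most CTCF among them, at 7.23, 9.19 and 8.84 CPM in 1000 cells and 14.3, 14.1 and 12.8 in 10000, without overlap (0.69, SE 0.20, edgeR adjusted p = 0.0816). Stag1, its paralogue, stood at 9.64, 8.28 and 6.88 against 12.3, 9.35 and 9.84 CPM, with overlap.

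Of the 39 Hox genes, the body-axis patterning factors whose clusters are divided by CTCF sites, 24 were tested and 0 called, with a median of 0.12. Clustered protocadherins, adhesion proteins whose promoter choice depends on CTCF, had 33 of 55 tested, 0 called and a median of 0.38, and their mean CTCF density was 2.63 ± 0.238 times the genome mean in 10000 cells and 2.13 ± 0.168 in 1000 (SD, n = 3 each). All 55 were placed by an H3K27ac-marked end. Among loop-anchored developmental loci 1 of 7 tested members rose: Bcl6, a transcriptional repressor, from 13.5, 12.3 and 8.84 to 17.2, 17.9 and 21.1 CPM (log2 fold change 0.71, SE 0.18, edgeR adjusted p = 0.0478). Myc in the same list stood at 36.2, 23.9 and 19.3 against 25.7, 30.9 and 32 CPM, with overlapping groups.

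Among genes of the myoblast, 8 of 15 myogenic regulators were tested, 0 called, with a median of 0.41. Myod1, the master regulator of the lineage, was read at the gene end with more H3K27ac, which here held only 0.832 and 0.327 CPM of H3K27ac in 100 and 1000 cells and is therefore not shown to be the active start. CTCF stood there at 9.16, 8.58 and 7.2 CPM in 1000 and 10.9, 10.7 and 11.6 in 10000 cells, without overlap (0.42, SE 0.21, edgeR adjusted p = 0.343). The contractile apparatus had 9 of 26 tested, 0 called and a median of 0.07. Matrix and cytoskeleton genes had the highest density of any list, 9.15 ± 0.256 times the genome mean in 10000 and 7.93 ± 0.811 in 1000 cells (SD, n = 3 each). Of their 22 tested members 0 were called, and Col1a1, the main fibrillar collagen, stood at 28.4, 21.5 and 24.9 against 24.6, 24.2 and 26.6 CPM.

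Housekeeping genes (25 of 26 tested, median 0.20), ribosomal protein genes (81 of 91, median 0.27), immediate early genes (19 of 19, median 0.17) and replication-dependent histone genes (48 of 65, median 0.11) had 0 called in either direction. Of 25 cell cycle genes tested 1 rose: E2f1, a transcription factor of the transition into S phase, from 5.78, 3.37 and 4.91 to 11.3, 10.3 and 9.1 CPM (log2 fold change 1.18, SE 0.26, edgeR adjusted p = 0.0247). Imprinted genes had 3 of 23 tested and 0 called, and of the 3 Peg3 and Usp29 share 1 interval and its counts (chr7:6728976-6731975, log2 fold change 0.78, edgeR adjusted p = 0.318). Olfactory and vomeronasal receptor genes, silent in this line, stood below the genome mean, at 0.426 ± 0.00476 times in 10000 and 0.456 ± 0.0339 in 1000 cells (SD, n = 3 each, 1431 genes).

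The marker lists of other cell types had few tested members and 0 called (blood 2 of 13, liver 1 of 10, neuronal and glial 2 of 12, fibroblast and adipocyte 4 of 9). With TMM scaling the list medians ran from -0.21 (blood markers, and olfactory receptors) to 0.18 (myogenic regulators) apart from imprinted genes, whose median of 0.56 is the value of the interval that Peg3 and Usp29 share, so the sign of most list medians (Hox genes, contractile and housekeeping genes among them) rests on the scaling. A tested member had to pass a filter on counts, which favours genes high in either group.

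**Figure D3:**
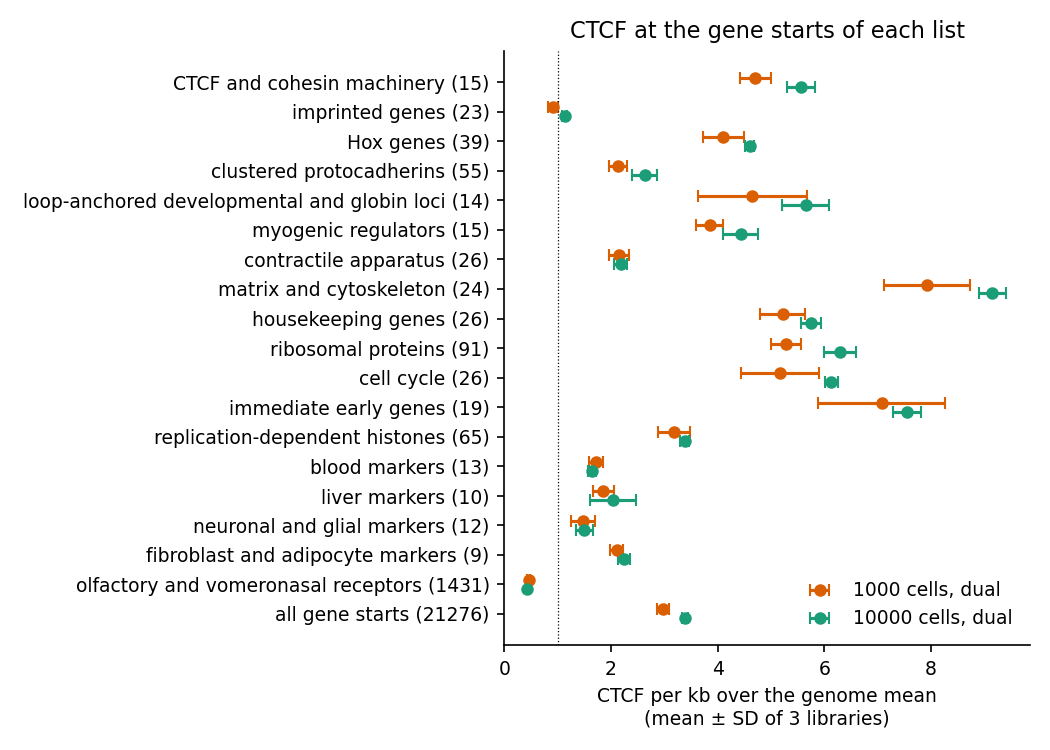
CTCF counts per kb at the gene starts of each list over the genome mean (x axis from 0, mean ± SD of 3 libraries) for 1000 and 10000 cells, with the number of placed genes in brackets; the dotted line is the genome mean. Matrix and cytoskeleton genes lie furthest right, at 9.15 and 7.93 times in 10000 and 1000 cells, while olfactory and vomeronasal receptor genes lie at 0.426 and 0.456 times.

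Loci where CTCF insulation or looping is well described were read at the 1 kb bin with the most single-stained CTCF within 20 kb of the named genes, a set chosen after the whole table had been seen. At the H19 and Igf2 locus, where CTCF on the maternal allele separates Igf2 from its enhancers, this bin was chr7:142581421-142582420, a reference site outside protein-coding genes. It held 8.2, 4.29 and 4.91 CPM in 1000 cells and 7.07, 7.06 and 7.62 in 10000, with overlap (log2 fold change 0.40, edgeR adjusted p = 0.571). Next to Myc, chr15:61982751-61983750 held 9.64, 14.7 and 16 against 17.2, 16.8 and 20.4 CPM, without overlap (0.36, edgeR adjusted p = 0.327).

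In the HoxA cluster the strongest bin, in Hoxa10, held 7.23, 7.66 and 4.91 against 9.29, 8.01 and 9.1 CPM, without overlap (0.42, edgeR adjusted p = 0.487). The HoxD bin, in Hoxd3, was lower on average in 10000 cells, at 10.7, 6.68 and 11.3 against 12.5, 12.9 and 10.2 CPM, with overlap (-0.33, edgeR adjusted p = 0.533). No tested bin of the 10 loci passed, among them 20 tested in HoxA, 16 in HoxB, 32 in HoxC, 9 in HoxD and 6 at Myc. Kcnq1ot1 and Meg3 had no reference site in the interval. Summed over the HoxA interval, CTCF held 183 ± 7.95 CPM in 10000 and 158 ± 21.2 in 1000 cells (SD, n = 3 each, exact permutation test, p = 0.1), and over the HoxB interval 247 ± 7.33 and 245 ± 21.2 (p = 1, exact permutation test). Mean sums were also higher in 10000 cells at HoxC, Myc and Peg3. They were lower in 10000 than in 1000 cells at H19 and Igf2 (61.9 against 63.7 CPM), Kcnq1ot1 (33 against 34.3) and Meg3 (19.3 against 23.1). The same held for HoxD (122 against 128) and Epha4 (45.6 against 47.3).

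Bins tested one by one showed changes in both directions. Of 40168 bins of 1 kb, 73 (0.182%) passed with more CTCF in 10000 cells and 20 (0.0498%) with less (edgeR, adjusted p under 0.05), beside 4645 at an unadjusted p under 0.05. The median log2 fold change was 0.12, and 97.4% of bins lay within a factor of 2 either way. Higher bins made up 78.5% of the calls. With TMM scaling, which lowered the median by 0.13, 8 bins passed as higher and 23 as lower, so that 25.8% of calls were higher, and DESeq2 gave 0 higher and 13 lower. The total of 93 calls went to 42, 31 and 36 without replicate 1, 2 or 3 of 10000 cells and to 54 without replicate 3 of 1000 cells.

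Higher bins lay mostly at reference sites. Of the 73, 65 were reference sites (89%, beside 62.4% of all tested bins), 38 were H3K4me3 bins (52.1% beside 28.9%) and 44 were distal (60.3% beside 71.8%). The reference sites were chosen in libraries of 10000 cells, which favours bins that are high at that cell number. The 89% is therefore a description only. Smyd3, a lysine methyltransferase, had a bin inside the gene (chr1:179086271-179087270) at 0.482, 0.919 and 2.29 CPM in 1000 and 5.25, 4.96 and 5.9 in 10000 cells (log2 fold change 2.00, SE 0.41, edgeR adjusted p = 0.00668), the largest with at least 20 counts in every library of 10000 cells. The bin at Mrc2, a collagen receptor (chr11:105292576-105293575), stood at 1.45, 1.23 and 1.31 against 5.25, 5.15 and 4.92 CPM (1.94, SE 0.41, edgeR adjusted p = 0.0105). The H3K4me3 libraries held 28.8 CPM in that bin in 10000 and 11.1 in 1000 cells.

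A bin within 2 kb of 2610002M06Rik and Tent5d on X (chrX:107815561-107816560) had no CTCF count in replicate 1 of 1000 cells and 4.29 and 1.96 CPM in the other libraries of that group, against 7.88, 7.63 and 6.64 in 10000 (1.63, SE 0.33, edgeR adjusted p = 0.00668). The intergenic bin chr6:70804716-70805715 was the only 1 of the 10 strongest distal reference sites to pass. It held 10.6, 17.2 and 16.7 CPM against 23.2, 24.6 and 21.1 (0.59, SE 0.14, edgeR adjusted p = 0.0329). The single staining held 23.2 CPM there and H3K4me3 9.61 in 10000 and 5.48 in 1000 cells.

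The other 9 strongest distal sites had fitted values of -0.03 to 0.25 and did not pass. Inside Mcoln2 (chr3:146177406-146178405) CTCF held 30.4, 26.1 and 22.6 CPM in 1000 and 24.4, 24.4 and 28.3 in 10000 cells (-0.02, SE 0.11), and inside Plgrkt (chr19:29354886-29355885) 19.3, 18.7 and 21.6 against 21, 21 and 25.1 (0.16, SE 0.13). The groups overlapped at both. Of the 10 strongest distal sites 4 are neighbours (chr17:39842841-39846840) where the mouse assembly carries a ribosomal RNA gene copy, and all 4 stood at least 5 times above the genome mean in every group of the series. The strongest (chr17:39843841-39844840) held 43.4, 32.8 and 36.7 against 40.4, 39.7 and 43 CPM.

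All 20 lower bins were distal, and 13 of them (65%, beside 12.2% of tested bins) had at least 5 times the genome mean in every group of the series, whatever the target. So did 27.4% of the higher bins. A stretch at the assembled start of chromosome 9, next to the centromere, held 8 of the 20 lower bins. There chr9:3017991-3018990 held 12.1, 8.89 and 9.82 CPM in 1000 and 4.04, 3.82 and 3.69 in 10000 cells (log2 fold change -1.37, SE 0.25, edgeR adjusted p = 0.00125). The bin chr12:3108991-3109990, at the start of chromosome 12, fell from 34.2, 30 and 26.2 to 14.5, 15.3 and 15.5 CPM (-0.98, SE 0.12, edgeR adjusted p = 3.81e-08).

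The bin chr2:98663601-98664600 fell from 26.5, 19.3 and 21 to 14.1, 9.73 and 10.6 CPM (-0.91, SE 0.15, edgeR adjusted p = 0.000126). At the bin on chromosome 12 the H3K4me3 libraries held 28.6 CPM in 1000 and 11.9 in 10000 cells, H3K27ac 36.1 in 100 and 20.4 in 1000 cells, and the elongating polymerase 37.8 and 18.7. Over all 20 lower bins the mean H3K4me3 CPM was higher in the 10000-cell group in 0, beside 67.7% of tested bins, and the H3K27ac and polymerase means were higher with more cells in 3 and 3, beside 48.8% and 54.5%. Among the 73 higher bins the H3K4me3 mean was higher in the 10000-cell group in 67. Their H3K27ac and polymerase means were higher with more cells in 37 and 44. The part of multiply mapped reads was not tested, since no source used here gives their treatment.

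A pair of lower bins lay at chr1:24611901-24613900, known as a nuclear copy of mitochondrial DNA. The first held 8.2, 5.52 and 3.93 CPM in 1000 and 2.22, 0.382 and 1.23 in 10000 cells (log2 fold change -2.12, edgeR adjusted p = 0.00247). The mitochondrial counts themselves were higher in the libraries of 1000 cells, as given above. A bin inside Igf1r, a growth factor receptor (chr7:68180726-68181725), fell from 3.86, 4.29 and 3.93 to 0.202, 0.572 and 0.738 CPM (edgeR adjusted p = 0.0255), the latter on only 1, 3 and 3 counts. These bins fall outside the rule for named bins, which asks for 20 counts in each library of the higher group, and were picked after their values were seen.

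**Figure D4:**
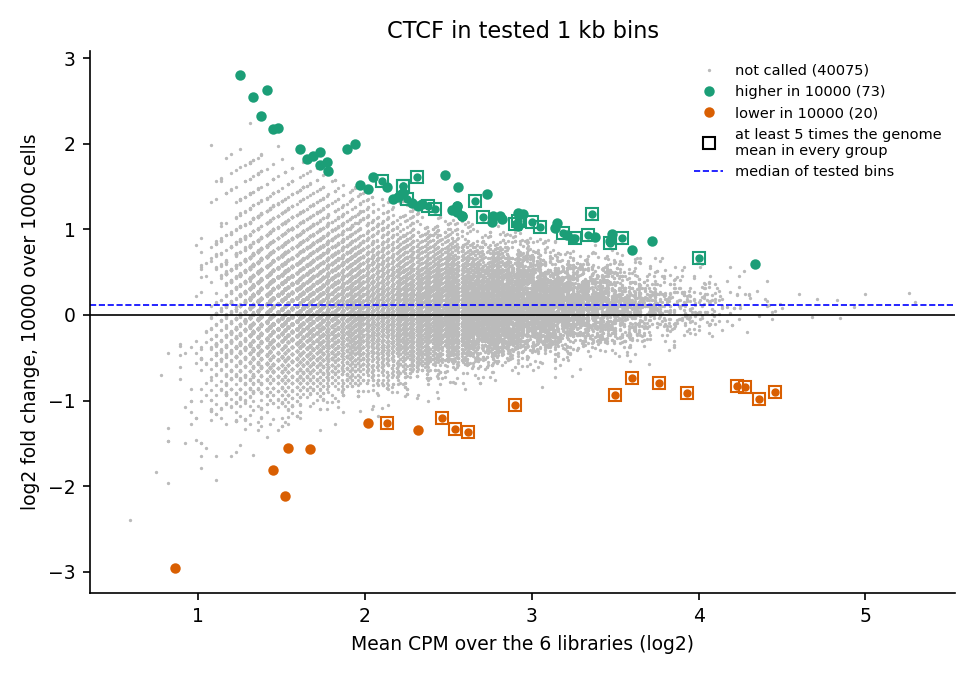
log2 fold change of CTCF (10000 over 1000 cells) against mean CPM over the 6 libraries (log2) for the 40168 tested bins, with 73 bins called higher in green, 20 called lower in orange, squares around bins at least 5 times the genome mean in every group of the series, and the dashed line at the median of 0.12. Squares surround 13 of the 20 lower and 20 of the 73 higher bins.

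In windows of 100 kb, 18 of 25203 (0.0714%) passed with more CTCF in 10000 cells and 22 (0.0873%) with less (edgeR, adjusted p under 0.05), beside 2893 at an unadjusted p under 0.05. DESeq2 called 0 higher and 3 lower, and the total of 40 went to 8, 7 and 7 without replicate 1, 2 or 3 of 10000 cells and to 71 without replicate 1 of 1000 cells. The window chr9:3001991-3101990, with no protein-coding gene, fell from 155, 135 and 152 to 75.2, 71.2 and 68.6 CPM (log2 fold change -1.03, SE 0.07, edgeR adjusted p = 2.57e-23). On chromosome 14, chr14:19414926-19517925 fell from 49.2, 39.5 and 43.9 to 22.4, 25.2 and 25.6 CPM (-0.84, SE 0.12, edgeR adjusted p = 4.16e-06). Most of this fall lay in 1 called lower bin, chr14:19415926-19416925, high in every group of the series. That bin averaged 31.8 CPM in 1000 and 16.7 in 10000 cells, within window means of 44.2 and 24.4. The window on chromosome 9 also holds called lower bins, chr9:3017991-3018990 among them. These windows are therefore not separate from the bins above. Mean H3K4me3 was higher in 10000 than in 1000 cells in 1 of the 22 lower and 17 of the 18 higher windows, beside 38.6% of all tested windows.

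Higher windows were smaller in effect, with log2 fold changes of 0.27 to 0.60. The window over Slc44a5, a choline transporter-like gene (chr3:154024376-154124375), held 15.9, 29.7 and 18.3 CPM in 1000 and 34.3, 32.8 and 33.2 in 10000 cells (0.60, SE 0.14, edgeR adjusted p = 0.0397). The window with Dmrt2 and Dmrt3, transcription factors of the doublesex family (chr19:25619901-25719900), held 51.1, 58.8 and 60.6 against 80.4, 80.1 and 73.5 CPM (0.45, SE 0.09, edgeR adjusted p = 0.00448). The window in Tcf7l1, a Wnt pathway repressor (chr6:72658706-72758705), held 61.7, 65.9 and 54 against 80.6, 83.9 and 81.1 CPM (0.44, SE 0.09, edgeR adjusted p = 0.00448). By whole chromosome the share of counts on X was 2.8% ± 0.00635 in 10000 and 2.91% ± 0.0808 in 1000 cells (SD, n = 3 each). X had the lowest ratio of any chromosome (0.96). Chromosomes 6, 7, 8, 10 and 18 gave the same exact permutation p = 0.1 as X. Of these only 18 was also lower in 10000 cells.

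Away from CTCF and H3K4me3 sites the counts of 1000 cells were more uneven. Among 2436466 bins outside the top 5% for both targets, and with every library thinned to 2074331 counts, 1326, 492 and 702 bins held 8 or more counts in the libraries of 1000 cells. In those of 10000 cells the numbers were 223, 201 and 195. The top 5% for CTCF was set in the single staining of 10000 cells, so bins high only in 1000 cells remain. This choice favours high bins in 1000 cells, and how much it adds to the difference was not tested. The variance over the mean in these bins was 1.61 ± 0.103 in 1000 and 1.4 ± 0.00655 in 10000 cells (SD, n = 3 each), without overlap (exact permutation test, p = 0.1). Replicate 1 of 1000 cells, with the most such bins, is the library with the fewest counts and was not reduced by the thinning.

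Many of these bins belonged to 1 library. Bins with 8 or more counts in a library and at most 1 in each of the other libraries of its group numbered 464, 132 and 183 in 1000 cells and 19, 22 and 27 in 10000. They made up 35%, 26.8% and 26.1% of the high background bins in 1000 cells against 8.52%, 10.9% and 13.8% in 10000. In 1000 cells they averaged 8.43 to 8.85 counts in their own library and 1.04 to 1.43 in the libraries of 10000 cells, and 89.4% to 94% of them were distal. The H3K4me3 library of the same staining stood at 1.22, 1.62 and 1.61 times its genome mean in these bins, and the other H3K4me3 libraries of 1000 cells at 0.9, 1.09 and 0.767 times. In the corresponding bins of 10000 cells the values were 1.17, 1.52 and 2.35 times against 1.44, 1.25 and 1.42, so the staining's own H3K4me3 was the higher for 2 of 3 libraries. The staining's own values rest on 155, 107 and 118 H3K4me3 counts in 1000 cells. In 10000 cells they rest on only 12, 25 and 35 counts, too few to read a pattern from. These sets were chosen by the counts they describe, so no test was made of them. They hold 0.0537% to 0.198% of a library's counts in 1000 cells.

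**Figure D5:**
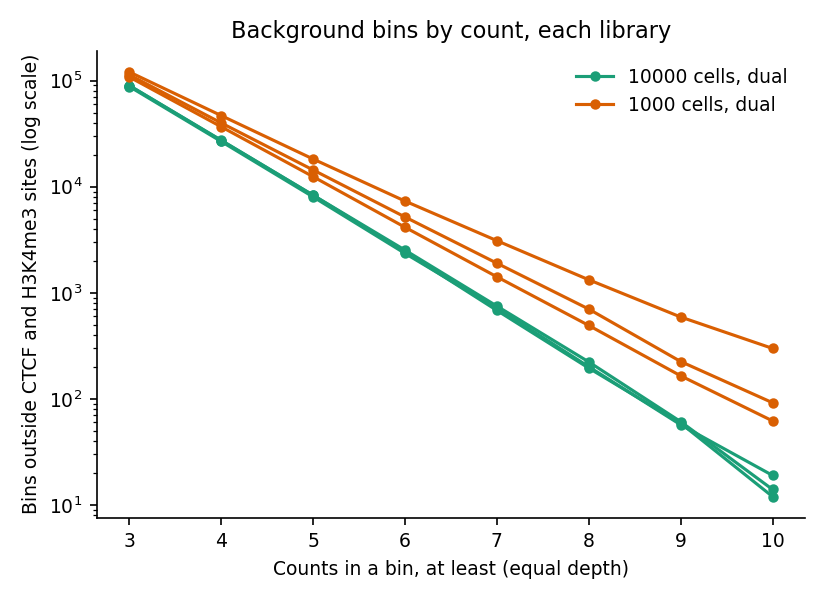
Number of bins outside CTCF and H3K4me3 sites (log scale) with at least 3 to 10 counts at equal depth, 1 line per library, orange for 1000 and green for 10000 cells. The green lines nearly coincide (223, 201 and 195 bins at 8 counts), and the orange lines lie above them and apart from each other (1326, 492 and 702). The CTCF sites left out were set in 10000 cells, which favours high bins in 1000 cells.

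Agreement between libraries was higher within 10000 than within 1000 cells. Over the reference sites at equal depth, Pearson's r between libraries, given as a description across bins that share depth and site strength, was 0.596 to 0.607 within 10000 cells, 0.552 to 0.559 within 1000 cells and 0.523 to 0.562 between them. The share of a library's own top 1% of bins found in another's top 1% was 65.9% to 66.4%, 58.1% to 59.7% and 59.9% to 62.3% in the same order. Of each library's own top bins, 71.8% to 72.2% were reference sites in 10000 cells and 66% to 68% in 1000. Those top bins held 16.2% ± 0.155 of the counts at equal depth in 10000 and 15.3% ± 0.437 in 1000 cells (SD, n = 3 each, exact permutation test, p = 0.1).

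The H3K4me3 libraries of the same stainings differed between cell numbers in the same direction overall. Of 17348 bins tested for H3K4me3, 343 passed as higher and 17 as lower in 10000 cells (2.08% in all, edgeR, adjusted p under 0.05), with a median log2 fold change of 0.18. That test was run at scaling by total counts only, so whether its direction rests on the scaling was not tested. Of the 93 called CTCF bins 39 were tested for H3K4me3, where 8 were called higher and 3 lower. All 8 lower CTCF bins with an H3K4me3 test also had a negative H3K4me3 fold change. Whether the change in CTCF differed from that in H3K4me3 was tested bin by bin as an interaction, and 0 of 35624 bins passed (0%, edgeR, smallest adjusted p 0.256), while 2132 (5.98%) had an unadjusted p under 0.05. TMM scaling gave 0 calls as well and 2225 at an unadjusted p under 0.05, and DESeq2 was not run on the interaction. These fits treat the libraries as independent, although the CTCF and H3K4me3 libraries of a staining share their cells. A fit with each staining as a block gave 0 calls and 2199 bins at an unadjusted p under 0.05 (edgeR).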

How the data were processed

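The table the authors deposited gives unscaled read counts in 1 kb bins. The tools named per the submitters' processing notes are bcl2fastq, HISAT2 2.1.0 and deepTools 3.3.1, with the build GRCm38; no source used here states how duplicates or multiply mapped reads were handled. Of 34 labelled samples 28 matched a column, and 4 columns matched no sample and were not used. Autosomes and X were kept (2631639 bins). Of these, 9 bins (on chromosomes 2, 9 and 14) that exceeded the genome mean by over 50 times in each group were left out. The remaining 2631630 bins were used, and their total served as library size. RefSeq (GRCm38.p6) placed 17274 genes by their start and 4002 by the end with more H3K27ac. Differences were tested with edgeR 4.0.16 (quasi-likelihood, filterByExpr, 6 libraries, Benjamini-Hochberg adjustment, threshold 0.05) in R 4.3.3, on code tested on simulated data. Alternatives were TMM, DESeq2 1.42.0, no filter (at least 10 counts), thinning, a replicate block and each library left out. SEs come from the edgeR F statistic. Python 3.11.15 with numpy 2.4.6, pandas 2.3.3, scipy 1.17.1 and matplotlib 3.10.9 did the rest. Named starts, bins and windows are the 5 largest called changes in each direction with groups apart and at least 20 counts in each library of the higher group (starts sharing no bin with another gene; the 5 smallest p where fewer than 3 passed), the 10 strongest starts and distal sites of the single staining, and up to 3 members per list with the highest CPM; others are said to be chosen after their values were seen. The comparison, lists and rules were chosen with earlier results of these data known.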

Additional observations from a re-analysis of the deposited data

How the results depend on the processing

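The counts here are all calls of a run, which can include features that the main run did not call. Against 93 called bins, TMM called 31, DESeq2 13, no filter on low counts 22 and thinning to equal depth 13, and leaving out 1 library gave 31 to 84. Against 43 called gene starts, TMM and DESeq2 called 0 and 0, starts within 2.5 kb 13 and both gene ends 19, and leaving out 1 library gave 0 to 34. Against 40 called windows, DESeq2 called 3 and thinning 15, and leaving out 1 library gave 7 to 71. The interaction with H3K4me3 had 0 called bins, and 0 to 1 without a library. The cause of these changes was not tested, apart from thinning and left-out libraries, which hold fewer counts. The replicate block, with the replicate number as a term, gave 80 bins, 0 gene starts and 40 windows. Deviations of same-numbered libraries from their group means correlated at 0.0108, 0.0184 and -0.013 over windows, beside -0.0316 to 0.0193 for other pairings. Counting noise pulls such values toward 0, so they cannot show whether same-numbered libraries share more than a number. The differences in shares at reference sites, gene starts, H3K4me3 bins and top bins, and in the motif ratio, kept their direction under every alternative run (other cut-offs, other widths, 1 library left out), in the group means. A sign-flip test over the 3 same-numbered pairs gave exact p = 0.25, the smallest possible, for each of these, but 0.5 (exact) for top bins without thinning and for the top 5%, where replicate 1 ran the other way. Top bin shares overlapped between groups without thinning (exact p = 0.3) and with the top 0.1% (p = 0.2, exact) or 5% (p = 0.4, exact) of bins.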
